A study of Drosophila melanogaster with 12 samples.

Results

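The mitochondrial ribosomal protein genes of Drosophila melanogaster were followed on 12 Affymetrix expression arrays of whole male Canton-S larvae. The genes were taken by name: every probe set that the platform annotation ties to a single gene and whose symbol, updated through the Entrez identifier, starts with mRpL (large subunit) or mRpS (small subunit). This gave 71 probe sets for 69 genes, 44 mRpL and 25 mRpS, out of 18952 probe sets and 11982 genes with a single-gene probe set. RefSeq lists 73 such genes, and the other 4 (mRpL34, mRpL37, mRpL53 and mRpS10) had no probe set of their own. All 69 genes passed the filter on dim genes, which removed the lowest 30% of the genes by mean.

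Each of the 4 groups held 3 arrays, which the labels call biological replicates without naming separate cultures, so the p-values measure the spread between these samples. The wandering high sugar group held larvae that had left the food before pupariation, reared on 1 M sucrose for their whole larval life. The wandering control group held larvae of that stage reared on 0.15 M sucrose. The mid-L3 high sugar group held feeding last-instar larvae that grew on control food and spent their final 12 hours on fresh 1 M sucrose food. The mid-L3 control group spent these 12 hours on fresh 0.15 M food. All groups shared the wild-type strain Canton-S and the same semi-defined base food. A comparison of the stages on high sugar therefore also compares lifelong with 12-hour exposure, and the stage and the length of exposure cannot be told apart there. On either food only the mid-L3 larvae are labelled with 12 hours on fresh food. The stage and this transfer therefore cannot be told apart on control food either.

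Mitochondria keep a small genome that encodes a few core subunits of the respiratory chain and the ATP synthase, and they translate its messages on ribosomes of their own. The protein parts of these ribosomes are encoded in the nucleus, made in the cytosol and imported. The small subunit reads the message, and the large subunit joins the amino acids. Many of the proteins have counterparts in bacterial ribosomes, while others are found in mitochondrial ribosomes and not in bacterial ones. Mutants in several of these genes, among them tko, bonsai and mRpL55, are known in Drosophila for slow or arrested larval growth.

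Values below are the deposited linear intensities of single arrays. Intensities of different probe sets are not set against each other, because each probe set has its own brightness. Changes are differences of log2(intensity + 12.7) after quantile normalization, from a limma fit over 8387 genes, with the Benjamini-Hochberg adjusted p taken over all of them and a threshold of 0.05. A negative change is a lower signal in the group named first, wandering before mid-L3 and high sugar before control. Only 3 arrays per group limit the precision, and the standard error of a diet or stage change of these genes was 0.07 to 0.16. The mean over 12 arrays of a mitochondrial ribosomal protein gene lay between 188 and 1517, with a median of 506.

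The stage labels matched their marker genes. The summed intensity of 7 salivary gland markers, mostly glue genes that switch on before pupariation, was 53033 to 53839 on wandering high sugar arrays and 53156 to 55293 on wandering control arrays. It was 360.2 to 4250.1 on mid-L3 high sugar arrays and 342 to 1059 on mid-L3 control arrays. The highest mid-L3 value, 4250.1, came from high sugar array 2, whose companions were at 360.2 and 429. Spearman correlations of the deposited values over all 18952 probe sets were 0.966 to 0.979 between arrays of the same group. Between arrays of different stages they were 0.831 to 0.877.

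The genes of the mitochondrial ribosome were lower in wandering than in feeding larvae. On control food 68 of 69 fell and 0 rose, against a background of 38.8% of all tested genes that fell and 41.1% that rose. Their median change was -1.03, so that the wandering signal was 49.0% of the mid-L3 signal, while the median over all tested genes was 0.03. The middle of the distribution was narrow, with quartiles of -1.28 and -0.81, and 38 of the 69 genes changed by less than -1. For 68 genes the 3 wandering control arrays all lay below the 3 mid-L3 control arrays, which held for 40.5% of all tested genes.

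Large falls were seen in both subunits. mRpL38, a large subunit protein with no bacterial counterpart, had intensities of 117, 138 and 126 in wandering control larvae, against 367, 447 and 378 in mid-L3 control larvae. The groups lay far apart, and the change was -1.81 ± 0.13 (SE, n = 3 each, adjusted p = 3.2e-08). mRpL2, whose bacterial counterpart sits at the peptidyl transferase centre, measured 241, 272 and 235 in wandering control larvae, against 744, 923 and 754 in mid-L3 control larvae. Its change was -1.79 ± 0.13 (adjusted p = 2.9e-08).

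mRpS35, a small subunit protein without a bacterial counterpart, had 318, 305 and 311 in wandering control larvae, against 826, 1044 and 1005 in mid-L3 control larvae. The wandering arrays were almost equal to each other, and the change was -1.70 ± 0.11 (adjusted p = 1.3e-08). mRpL55, needed for normal larval development in Drosophila, had 302, 322 and 313 in wandering control larvae, against 849, 1130.2 and 888 in mid-L3 control larvae. It changed by -1.69 ± 0.13 (adjusted p = 5.4e-08). mRpL46 had the lowest adjusted p of the 69 genes (2.6e-09), with 165, 179 and 184 in wandering control larvae, against 478, 559 and 501 in mid-L3 control larvae.

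**Figure D1:**
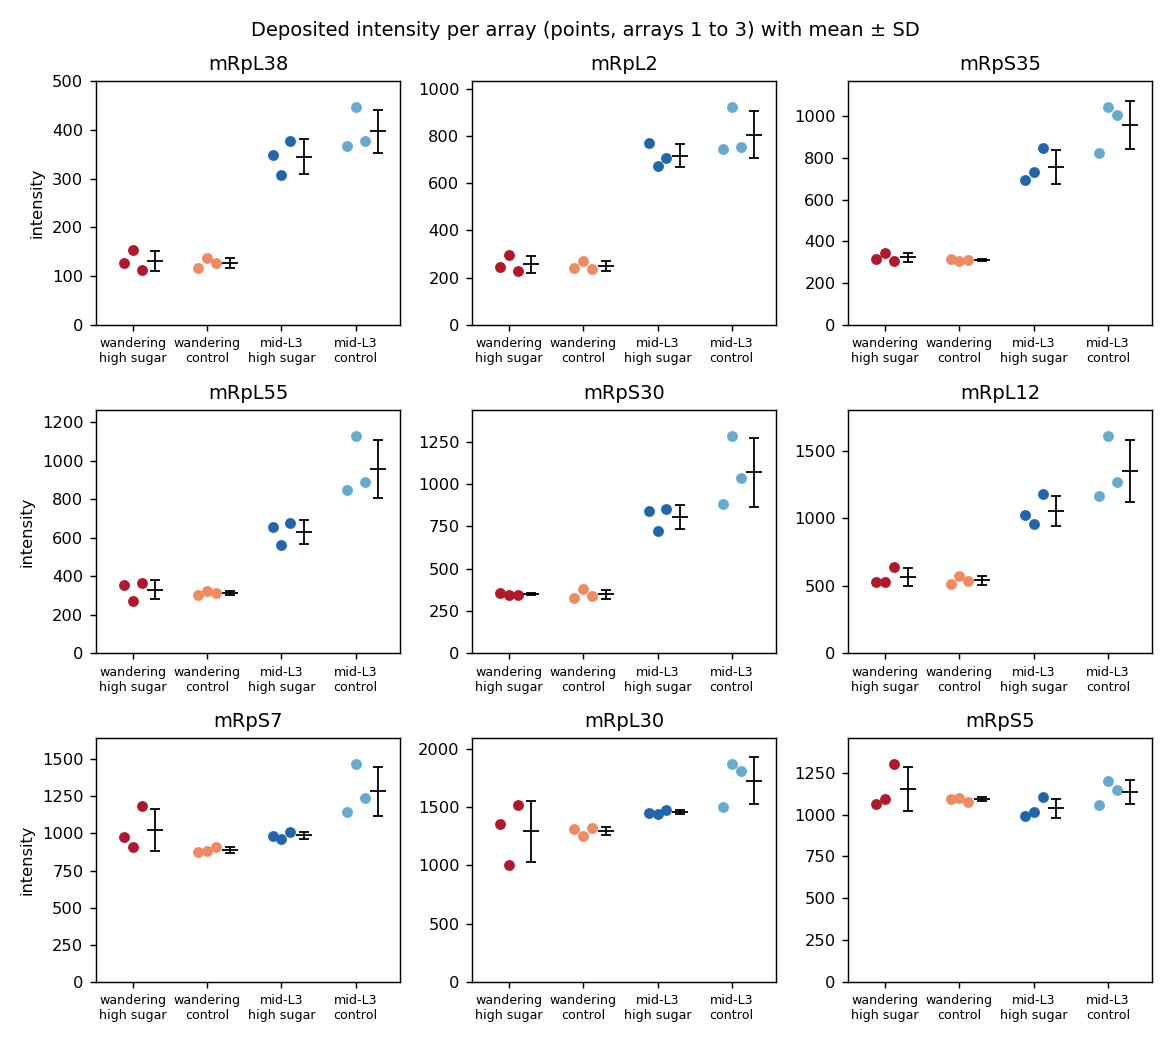
Deposited linear intensity of 9 mitochondrial ribosomal protein genes on each of the 12 arrays, by group; points are arrays and the black marks give mean ± SD of 3 arrays. Both wandering groups lie below both mid-L3 groups for mRpL38, mRpL2, mRpS35, mRpL55, mRpS30 and mRpL12, whereas the groups overlap for mRpS5, which had 1094, 1101 and 1078 in wandering control larvae and 1057, 1198 and 1148 in mid-L3 control larvae.

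Several members are known for roles in growth or cell death. mRpL12, a protein of the ribosomal stalk required in Drosophila for growth driven by Cyclin D and Cdk4, had 510.5, 572 and 534 in wandering control larvae, against 1165, 1611 and 1271 in mid-L3 control larvae (-1.36 ± 0.12, adjusted p = 3.1e-07). mRpS29, a GTP-binding protein whose human counterpart is also called DAP3, had 439, 412 and 435 in wandering control larvae, against 725, 922 and 784 in mid-L3 control larvae (-1.03 ± 0.11, adjusted p = 1.6e-06). mRpS30 had 327, 379.5 and 337 in wandering control larvae, against 883, 1287 and 1039 in mid-L3 control larvae (-1.69 ± 0.13, adjusted p = 5.4e-08). In mammals the mRpS30 protein sits in the large subunit despite its name. None of these 3 genes had an array of one stage inside the range of the other.

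Proteins of the mitochondrial ribosome that go by other symbols moved with the group. tko, the counterpart of ribosomal protein S12, had 676, 711 and 638 in wandering control larvae, against 1409, 1798 and 1572 in mid-L3 control larvae. Its change was -1.24 ± 0.10 (adjusted p = 1.3e-07). bonsai, the counterpart of ribosomal protein S15, had 559, 559 and 557 in wandering control larvae, against 1089, 1397 and 1057 in mid-L3 control larvae. Its change was -1.13 ± 0.13 (adjusted p = 3.6e-06). Both were chosen by name and not by the mRp symbol, and they are not counted among the 69.

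The median change was the same for genes named after either subunit. It was -1.03 for the 44 mRpL genes, of which 44 fell, and -1.03 for the 25 mRpS genes, of which 24 fell. A bacterial counterpart was assigned by symbol number, not checked gene by gene, so the groups below can hold misplaced genes. Subunits follow the symbol too, although mRpS30 sits in the large subunit in mammals. Among mRpS genes, the 12 set as without a bacterial counterpart all fell, with a median of -1.19 and a range of -1.70 to -0.44. The 13 small subunit genes with a bacterial counterpart had a median of -0.71 and a range of -1.47 to -0.07, and 12 of them fell. Within the large subunit these medians were closer, at -1.07 for 17 genes without and -1.0 for 27 genes with a bacterial counterpart. These are descriptions of the named groups, and the difference between them was not tested.

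Among small subunit genes with a bacterial counterpart the changes spread widely. mRpS2 (-1.47) and mRpS14 (-1.28) fell as far as most large subunit genes, whereas mRpS9 (-0.71), mRpS7 (-0.55) and mRpS17 (-0.47) fell less. The paralogues of bacterial S18 were unequal too: mRpS18C changed by -1.08 ± 0.14, mRpS18A by -0.65 ± 0.15 and mRpS18B by -0.53 ± 0.15, and all 3 passed the test. mRpS18C had 226, 268 and 225 in wandering control larvae, against 368, 578 and 403 in mid-L3 control larvae. mRpS18B had 520.0, 543 and 513 in wandering control larvae, against 632, 837 and 638 in mid-L3 control larvae. In mammals the proteins of this trio sit at different places in the ribosome.

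mRpS5 was the single member that did not pass. Its intensities were 1094, 1101 and 1078 in wandering control larvae, against 1057, 1198 and 1148 in mid-L3 control larvae. The groups overlapped, and the change was -0.07 ± 0.08 (adjusted p = 0.41). mRpS5 is the counterpart of bacterial S5, a protein at the entry of the message into the small subunit. The genes next to it in size of change passed the test. mRpL30 had 1313, 1257 and 1322 in wandering control larvae, against 1500.5, 1871 and 1815 in mid-L3 control larvae (-0.35 ± 0.13, adjusted p = 0.021). mRpL33 had 1072, 1045 and 1137 in wandering control larvae, against 1382, 1481 and 1452 in mid-L3 control larvae (-0.40 ± 0.09, adjusted p = 0.0014).

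**Figure D2:**
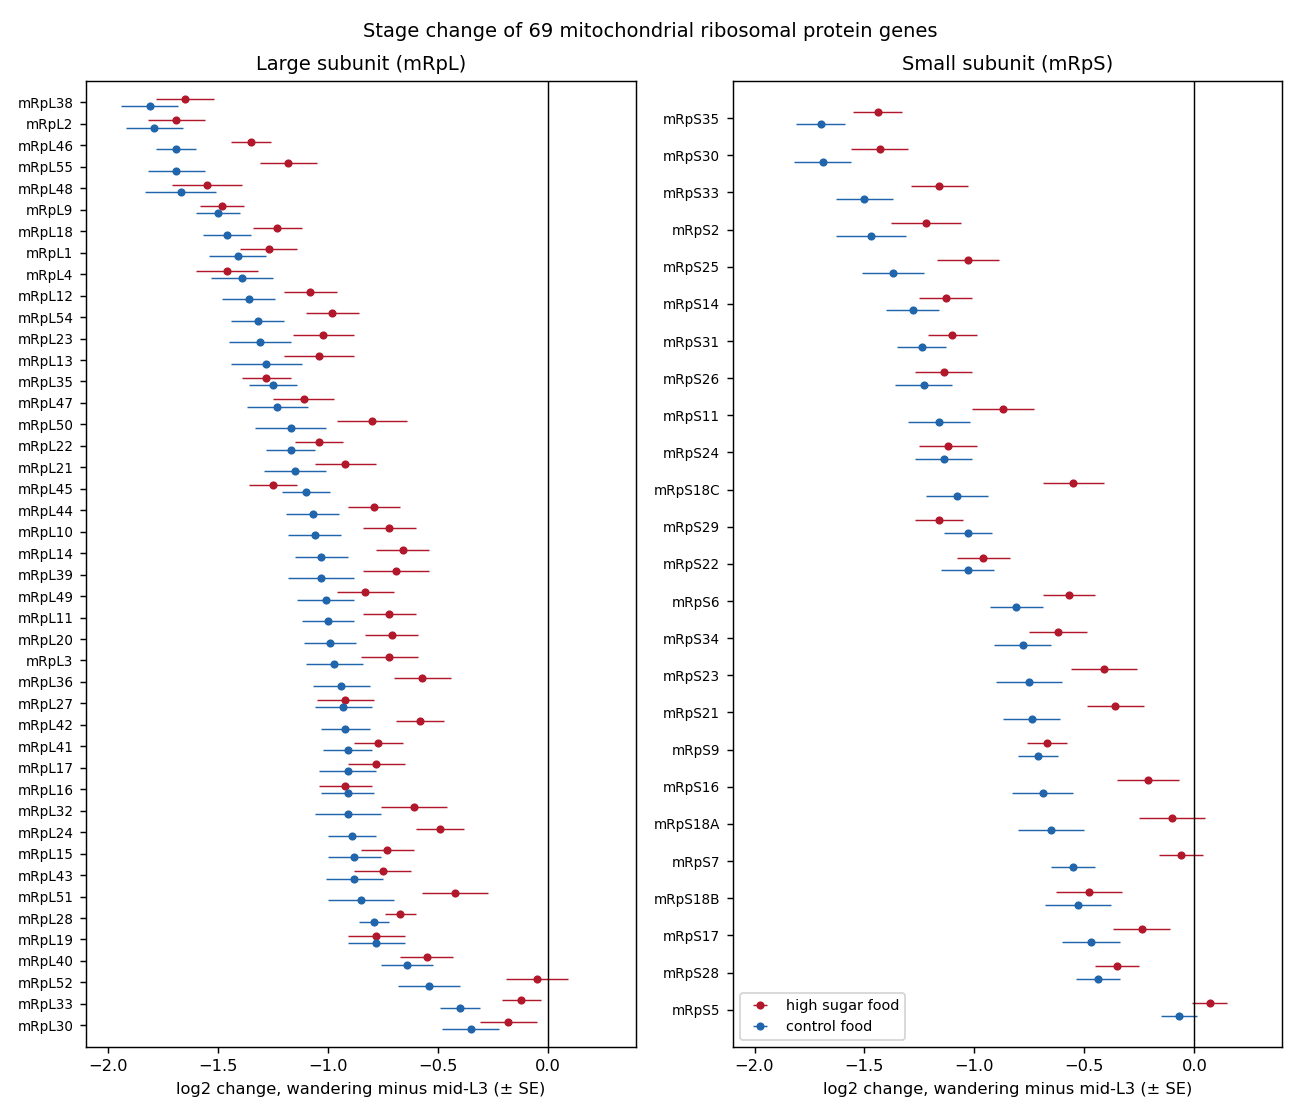
Log2 change between the stages, wandering minus mid-L3, of each of the 69 genes with its standard error, on high sugar food (red) and on control food (blue); large subunit genes are on the left and small subunit genes on the right, ordered by the change on control food. All control food values lie below 0, and mRpS5 lies at -0.07 on control food and 0.07 on high sugar food.

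mRpL47 and mRpS11 had 2 probe sets each, which changed in the same direction and by unequal amounts. For mRpL47 the brighter probe set changed by -1.23 and the dimmer by -1.61 on control food. For mRpS11 the brighter changed by -1.16 and the dimmer by -1.64. Counts use the brighter probe set of a gene. A probe set that mRpS10 shares with CG34316 and one that mRpL53 shares with CG33155 were not counted, since their signal cannot be assigned to either gene.

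On high sugar food, measured on other arrays of both stages, 61 of the 69 genes fell and 0 rose, against 40.0% of all tested genes that fell. The median change was -0.79, a wandering signal of 58.0% of the mid-L3 signal, and the median of all tested genes was -0.02. The range was -1.69 to 0.07. All 61 of these genes had also fallen on control food, where they made up 61 of the 68. With deposited values that were not normalized further, 51 genes fell on high sugar food and the median was -0.53, on a scale where the median of all tested genes was 0.18.

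The genes with the largest falls were largely those of control food. mRpL2 had 245, 298 and 229 in wandering high sugar larvae, against 770.4, 672 and 707 in mid-L3 high sugar larvae (-1.69 ± 0.13, adjusted p = 5.1e-08). mRpL38 had 126, 153 and 112 in wandering high sugar larvae, against 348, 307 and 378 in mid-L3 high sugar larvae (-1.65 ± 0.13, adjusted p = 8.5e-08). For both genes the wandering arrays on either food lay below all 6 mid-L3 arrays.

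mRpL48 had 127, 124 and 103 in wandering high sugar larvae, against 298, 261 and 315 in mid-L3 high sugar larvae (-1.55 ± 0.16, adjusted p = 9.9e-07). mRpL9, the counterpart of bacterial L9, had 268, 246 and 273 in wandering high sugar larvae, against 664, 555 and 667 in mid-L3 high sugar larvae (-1.48 ± 0.10, adjusted p = 2.5e-08). mRpL9 changed by nearly the same amount on control food (-1.50 ± 0.10). mRpL45, which in mammals anchors the ribosome to the inner membrane, and mRpL4, which lines the exit tunnel for the new peptide, changed by -1.25 ± 0.11 and -1.46 ± 0.14 on high sugar food, against -1.10 ± 0.11 and -1.39 ± 0.14 on control food.

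The genes fixed by name fell on high sugar food as well. mRpL12 changed by -1.08 ± 0.12 (adjusted p = 3.0e-06), mRpS29 by -1.16 ± 0.11 (adjusted p = 4.9e-07) and mRpS30 by -1.43 ± 0.13 (adjusted p = 2.9e-07). tko changed by -1.04 ± 0.10 (adjusted p = 8.0e-07) and bonsai by -0.97 ± 0.13 (adjusted p = 1.6e-05). tko had 629, 589.8 and 658 in wandering high sugar larvae, against 1243, 1057 and 1217 in mid-L3 high sugar larvae. As on control food, no wandering array of tko reached a mid-L3 array.

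In the same groups by symbol and number, the small subunit genes set as without a bacterial counterpart fell in 12 of 12 cases on high sugar food. Their median was -1.11. Of the small subunit genes with a bacterial counterpart 8 of 13 fell, with a median of -0.48; with deposited values 4 of 13 fell, with a median of -0.24. In the large subunit 16 of 17 genes without and 25 of 27 genes with a bacterial counterpart fell, with medians of -0.80 and -0.78. With the groups set by symbol and number, the order of the 4 role groups by median was the same on either food. It began with the small subunit genes without a bacterial counterpart and ended with those that have one.

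7 genes passed on control food but not on high sugar food: mRpL30, mRpL33, mRpL52, mRpS7, mRpS16, mRpS17 and mRpS18A. mRpS7, a head protein of the small subunit, had 974, 912 and 1187 in wandering high sugar larvae, against 986, 966 and 1011 in mid-L3 high sugar larvae. Those groups overlapped (-0.06 ± 0.10, adjusted p = 0.61). On control food mRpS7 had 876, 883 and 912 in wandering larvae, against 1144, 1468 and 1238 in mid-L3 larvae, which did not overlap (-0.55 ± 0.10, adjusted p = 3.0e-04). The difference between the foods, tested as an interaction, was 0.49 ± 0.15 with an adjusted p of 0.064.

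mRpS18A showed a similar layout. It had 519, 380.1 and 536 in wandering high sugar larvae, against 424, 375 and 453 in mid-L3 high sugar larvae (-0.10 ± 0.15, adjusted p = 0.52). It had 350.1, 452 and 426 in wandering control larvae, against 499, 676 and 547 in mid-L3 control larvae (-0.65 ± 0.15, adjusted p = 0.0012). Its interaction was 0.55 ± 0.21 (adjusted p = 0.14). mRpL52 had an interaction of 0.48 ± 0.20 (adjusted p = 0.16) and mRpS16 one of 0.47 ± 0.19 (adjusted p = 0.17). None of the 7 genes passed this test, so none is shown to change differently on the foods.

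mRpS5 passed on neither food. It had 1060.3, 1094 and 1302 in wandering high sugar larvae, against 993, 1014 and 1103 in mid-L3 high sugar larvae. The groups overlapped, and the change was 0.07 ± 0.08 (adjusted p = 0.42). With deposited values not normalized further, mRpS5 remained uncalled on control food (-0.05), and on high sugar food mRpL52 (0.19), mRpS18A (0.18), mRpS5 (0.15), mRpS7 (0.04) and mRpS16 (0.01) lay above 0 without passing.

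Other genes of the mitochondrial translation apparatus mostly fell with the ribosomal proteins on control food. Of 9 mitochondrial translation factors 8 fell, with a median of -1.18. The elongation factor mEFTu1, which brings aminoacyl-tRNA to the ribosome, had 326, 309 and 343 in wandering control larvae, against 1261, 1805 and 1579 in mid-L3 control larvae (-2.26 ± 0.15, adjusted p = 1.3e-08). The release factor mRF1 changed by -1.68 ± 0.15 and the translocase mEFG1 by -1.54 ± 0.13. mEFTs, the exchange factor for mEFTu1, was the one that did not pass (-0.15 ± 0.16, adjusted p = 0.39).

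The mitochondrial aminoacyl-tRNA synthetases, which load tRNAs inside the organelle, were mixed. Of 14 tested, 9 fell and 2 rose on control food, with a median of -0.79. TyrRS-m had 84.3, 80.1 and 89.4 in wandering control larvae, against 227, 222 and 231 in mid-L3 control larvae (-1.57 ± 0.09, adjusted p = 6.9e-09). CysRS-m moved the other way, with 423, 489 and 372 in wandering control larvae, against 198, 248 and 214 in mid-L3 control larvae (0.67 ± 0.11, adjusted p = 1.0e-04). TrpRS-m rose by 0.29 ± 0.11 (adjusted p = 0.032), although its groups overlapped in the deposited values. With arrays centered on their medians 1 synthetase rose and 9 fell.

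Of 15 genes for the upkeep, transcription and RNA of the mitochondrial genome 11 fell and 0 rose on control food, with a median of -0.80. Among them were bsf, an RNA-binding protein that stabilises mitochondrial messages (-1.51 ± 0.14), the exonuclease PNPase (-1.46 ± 0.13) and scu, a subunit of mitochondrial RNase P (-1.16 ± 0.07). TFAM, which packs the mitochondrial genome, had 555, 511 and 516 in wandering control larvae, against 778, 887 and 922 in mid-L3 control larvae (-0.80 ± 0.14, adjusted p = 1.6e-04). Dbp21E2, the 1 tested gene of a list for mitochondrial ribosome assembly, changed by -1.01 ± 0.13.

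On high sugar food the same lists gave 7 falls of 9 translation factors (median -0.93), 9 falls and 2 rises of 14 synthetases (-0.63), and 11 falls of 15 genome and RNA genes (-0.65). mEFTu1 changed by -2.29 ± 0.15 there and TyrRS-m by -1.29 ± 0.09. CysRS-m again rose (0.97 ± 0.11). Each of the 3 lists thus had a smaller median fall on high sugar food than on control food, as the 69 ribosomal protein genes had. This difference was not tested over lists. For the 69 genes the medians on the 2 foods were nearly equal without both mid-L3 arrays numbered 2, as given below.

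The subunits of oxidative phosphorylation, some of whose partners the mitochondrial ribosome makes, did not move one way. Of 70 tested, 56 fell and 14 rose on control food, with a median of -0.98. All 14 that rose had a symbol ending in L or in L and a number, which is a split noticed after the values were seen. The ending did not fix the direction, since 17 tested genes carry it and 3 of them fell on both foods: ATPsynbetaL (-0.76 on high sugar and -0.46 on control food), COX7AL2 (-1.97 on high sugar and -1.62 on control food) and ND-MNLL (-1.10 on high sugar and -1.56 on control food). The 53 genes without that ending all fell, with a median of -0.91 on high sugar food and -1.10 on control food. Cyt-c1, of the cytochrome bc1 complex, had 1159, 1083 and 1053 in wandering control larvae, against 6607, 6768 and 6743 in mid-L3 control larvae (-2.42 ± 0.06). COX4L, a cytochrome oxidase paralogue, had 1443, 1801 and 1444 in wandering control larvae, against 153, 114 and 119 in mid-L3 control larvae (3.34 ± 0.13).

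The cytosolic ribosomal proteins, which build the other ribosome of the cell, did not share the fall. Of 39 tested, 24 rose and 1 fell on control food, with a median of 0.14. This direction depended on the scaling: the median was 0.03 with deposited values (10 rose, 3 fell) and -0.27 with arrays centered on their medians (5 rose, 31 fell). Their median mean intensity was 9745, close to the top of the scale at 15822, where array signals can be compressed. The 69 mitochondrial ribosomal protein genes had a median of -1.03, -0.88 and -1.18 under these same settings.

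**Figure D3:**
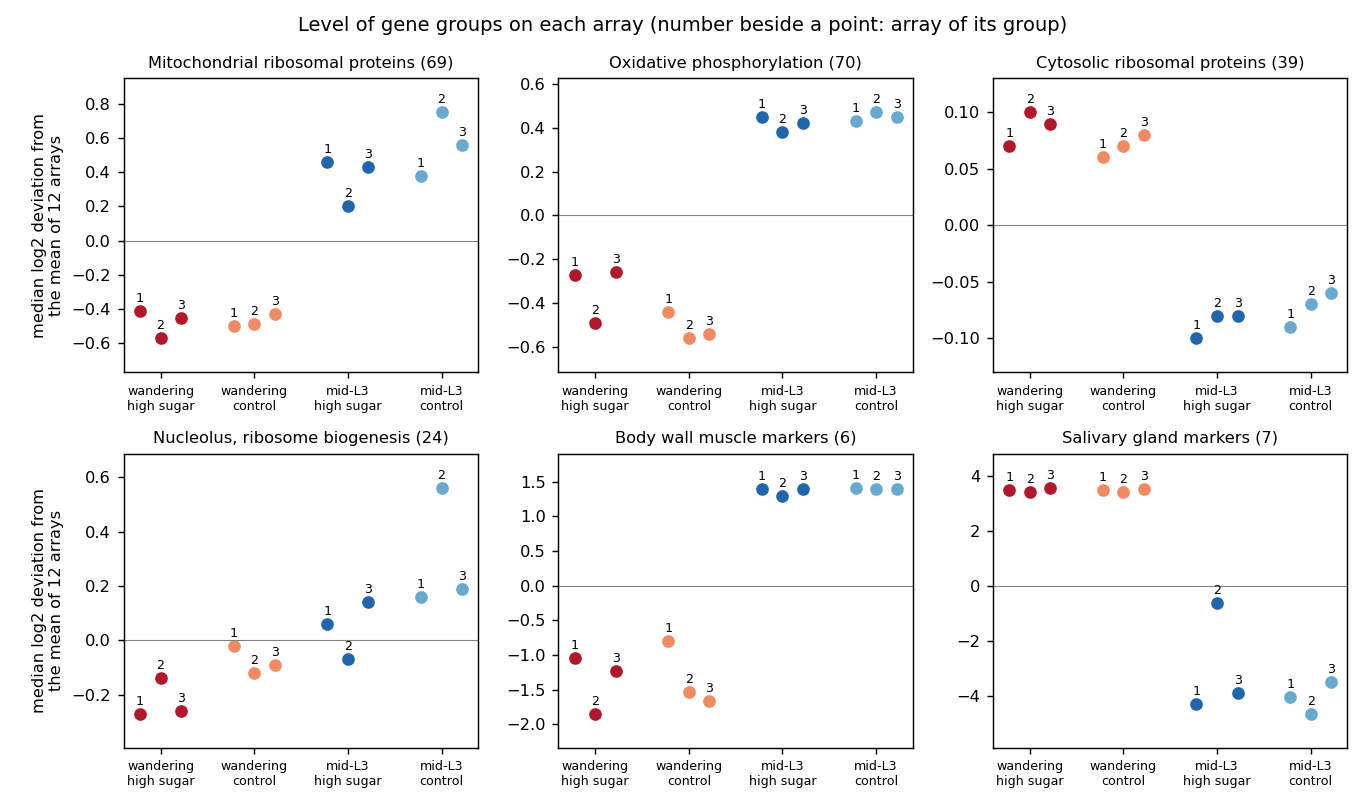
Median log2 deviation of 6 gene groups from their mean over all 12 arrays, for each array of each group (numbers mark the array within its group). The mitochondrial ribosomal proteins lie between -0.57 and -0.41 on wandering high sugar arrays, between -0.50 and -0.43 on wandering control arrays, between 0.20 and 0.46 on mid-L3 high sugar arrays and between 0.38 and 0.75 on mid-L3 control arrays; muscle markers separate the stages in the same direction, and the vertical scales differ.

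Markers of body wall muscle, a tissue rich in mitochondria, moved with the stage too. All 6 tested fell, with medians of -2.79 on high sugar food and -2.88 on control food. Their summed intensity was 5952 to 10792 on wandering high sugar arrays, against 33296 to 34303 on mid-L3 high sugar arrays. On control food it was 6427 to 11895 on wandering arrays, against 34218 to 35528 on mid-L3 arrays. Their part in the fall of the ribosomal protein genes was not tested. In whole larvae, fewer cells of a type and less RNA per cell cannot be told apart.

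Markers of other tissues were mixed. On high sugar food 8 of 10 testis markers rose and 1 fell (median 1.62), 4 of 5 fat body markers rose (1.24), and 1 of 7 midgut markers rose and 4 fell (-0.33). Among 8 markers of dividing cells 2 rose and 2 fell (0.15), 1 of 2 nervous system markers rose (0.38), and both dosage compensation genes fell (-0.60). On control food 8 of 10 testis markers rose and 1 fell (median 1.77), 2 of 5 fat body markers rose and 1 fell (0.08), and 3 of 7 midgut markers rose and 4 fell (-0.47). Among 8 markers of dividing cells 2 rose and 3 fell (0.10), 1 of 2 nervous system markers rose (0.22), and neither of 2 dosage compensation genes passed (-0.26). The part of these tissues in the result was not tested.

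In wandering larvae the diet left no change in these genes that passed the test. After lifelong high sugar 0 of the 69 passed in limma, and 0 had an unadjusted p under 0.05, although 23.1% of all tested genes did and 6.61% passed. The changes lay between -0.22 and 0.27 with a median of 0.00. mRpL2 had 245, 298 and 229 in wandering high sugar larvae and 241, 272 and 235 in wandering control larvae, a change of 0.00 ± 0.13. mRpL38 likewise had 126, 153 and 112 in wandering high sugar larvae and 117, 138 and 126 in wandering control larvae.

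The genes at the ends of this range were mRpL9 and mRpS21. mRpL9 had 268, 246 and 273 in wandering high sugar larvae and 278, 301 and 318 in wandering control larvae, groups that did not overlap (-0.22 ± 0.10, adjusted p = 0.23). mRpS21 had 1035, 771 and 1167 in wandering high sugar larvae and 859, 821 and 805 in wandering control larvae. High sugar array 2 was below all controls and the others above them (0.27 ± 0.13, adjusted p = 0.25). Without that array mRpS21 alone passed (0.42, adjusted p = 0.024), which is 1.45% of the 69 against 7.99% of all tested genes that rose. With estimated array weights mRpS21 and mRpL51 passed, 2.9% against 14.4%. tko (-0.13 ± 0.10) and bonsai (0.12 ± 0.13) did not pass either.

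Subunits of the respiratory chain differed from this picture in the same larvae. Of 70, 9 rose and 0 fell after lifelong high sugar, with a median of 0.21, against 3.73% of all tested genes that rose. Their median deviation was -0.27, -0.49 and -0.26 on wandering high sugar arrays 1 to 3, against -0.44, -0.56 and -0.54 on wandering control arrays. High sugar array 2 thus lay within the control range. Cyt-c1 had 1417, 1302 and 1464 in wandering high sugar larvae and 1159, 1083 and 1053 in wandering control larvae (0.41 ± 0.06, adjusted p = 0.0016). Among the genes for the mitochondrial genome and its RNA, scu rose by 0.40 ± 0.07 (adjusted p = 0.0045). No translation factor, synthetase or cytosolic ribosomal protein passed. Midgut markers summed to 30344 to 38381 on wandering high sugar arrays, against 24005 to 28944 on wandering control arrays, and 2 of 7 rose (median 0.48). Their part in the respiratory chain values was not tested.

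**Figure D4:**
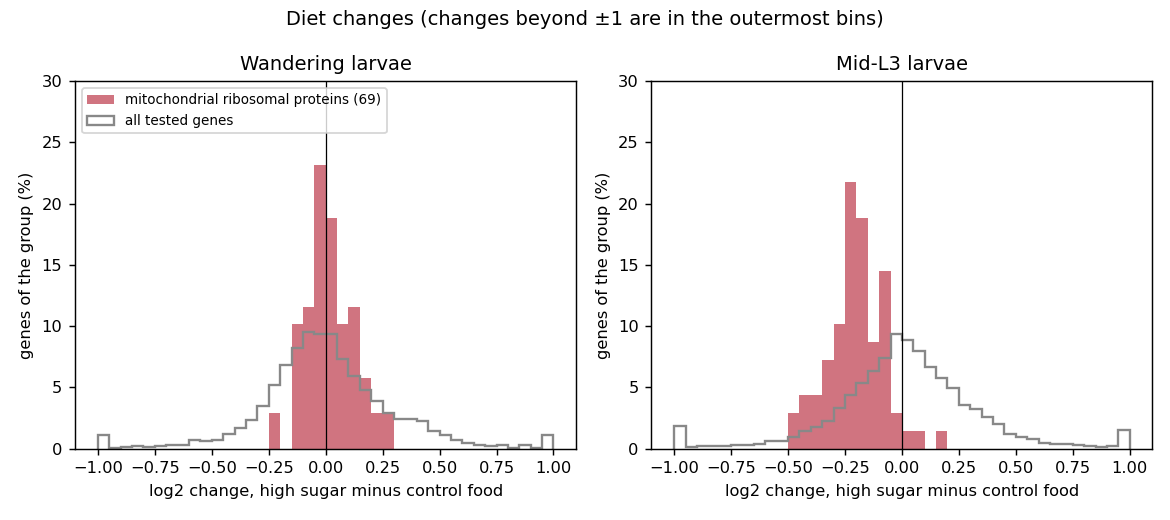
Distribution of the log2 diet change, high sugar minus control food, of the 69 mitochondrial ribosomal protein genes (filled) and of all 8387 tested genes (outline), in wandering larvae (left) and mid-L3 larvae (right), in percent of each set. The 69 genes center on 0.00 in wandering larvae and on -0.20 in mid-L3 larvae, where 66 of them lie below 0.

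In mid-L3 larvae, 12 hours of high sugar food gave small values that leaned one way. 5 of the 69 genes fell and 0 rose, which is 7.25% against 6.45% of all tested genes that fell. The share that passed was thus near the background as fitted here, and with deposited values, where 10.1% of the 69 and 7.70% of all tested genes fell. With arrays centered on their medians 14 of the 69 genes fell, which is 20.3% against 9.29% of all tested genes. The fitted change was below 0 for 66 of 69 genes (95.7%, against 47.5% of all tested genes), with a median of -0.20, against 0.01 over all. For 16 genes (23.2%) the 3 high sugar arrays all lay below the 3 control arrays, which held for 17.8% of all tested genes.

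The 5 genes that passed came from both subunits. mRpL55 had 655, 561 and 675 in mid-L3 high sugar larvae, against 849, 1130.2 and 888 in mid-L3 control larvae (-0.49 ± 0.13, adjusted p = 0.022). mRpS18C, one of the S18 paralogues, had 314, 278 and 318 in mid-L3 high sugar larvae, against 368, 578 and 403 in mid-L3 control larvae (-0.47 ± 0.14, adjusted p = 0.046). For both, high sugar array 2 was the lowest and control array 2 the highest of the 6.

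mRpL54, a large subunit protein without a bacterial counterpart, had 319, 297 and 352 in mid-L3 high sugar larvae, against 414, 535 and 447 in mid-L3 control larvae (-0.45 ± 0.12, adjusted p = 0.03). mRpS16 had 532, 489.9 and 616 in mid-L3 high sugar larvae, against 654, 921 and 812 in mid-L3 control larvae (-0.44 ± 0.14, adjusted p = 0.049). mRpL14, whose bacterial counterpart lies at the interface of the subunits, had 721, 577 and 699.9 in mid-L3 high sugar larvae, against 812, 1085 and 938 in mid-L3 control larvae (-0.40 ± 0.12, adjusted p = 0.045). The same arrays held the extremes in these genes. tko also passed (-0.33 ± 0.10, adjusted p = 0.048), while bonsai did not (-0.04 ± 0.13).

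The calls among these values depended on single arrays. Control array 2 was the highest of its group for 67 of the 69 genes, against 40.7% of all tested genes, and high sugar array 2 the lowest of its group for 66, against 35.2%. Without control array 2, without control array 3 or without high sugar array 2, 0 genes passed, with medians of -0.11, -0.21 and -0.13. Without either array numbered 2 alone, 60 of 69 values still lay below 0. Leaving out any other array left 2 to 7 that passed (2.9% to 10.1%, against 4.23% to 8.16% of all tested genes that fell). Without both arrays numbered 2, an alternative chosen after seeing the data, 0 passed, the median was -0.03 and 43 of 69 values lay below 0. tko had an adjusted p of up to 0.42 over the alternatives.

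**Figure D5:**
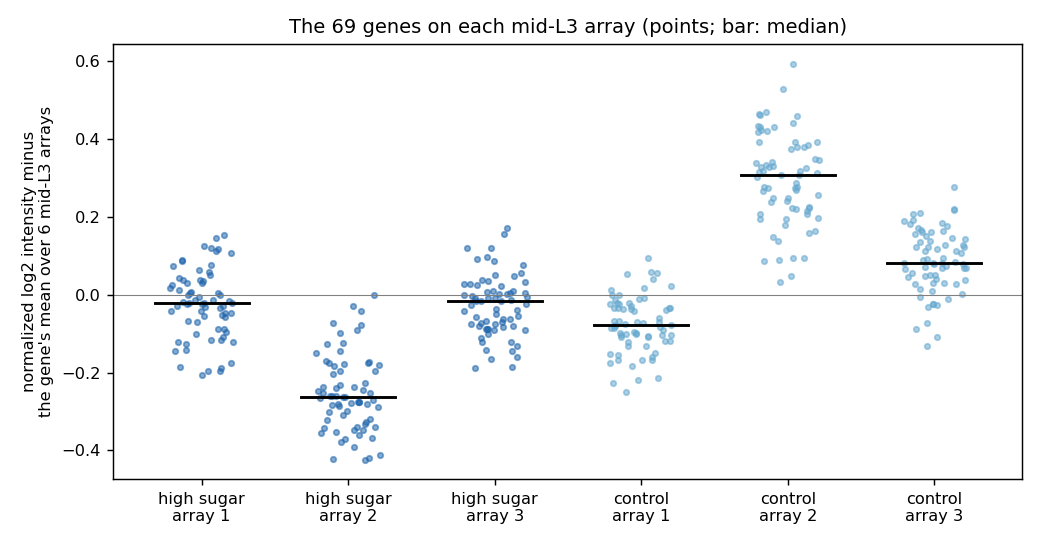
Normalized log2 intensity of each of the 69 genes on the 6 mid-L3 arrays, as a deviation from the gene's mean over these arrays (points), with the median of each array (bar). High sugar array 2 has a median of -0.26 and all 69 genes below 0, control array 2 a median of 0.31 and all 69 genes above 0, and the other 4 arrays have medians of -0.02, -0.02, -0.08 and 0.08.

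Some other measures also differed on these arrays. The median deviation of 24 nucleolar and ribosome biogenesis genes was -0.07 on high sugar array 2, against 0.06 and 0.14 on the other high sugar arrays. It was 0.56 on control array 2, against 0.16 and 0.19 on the other control arrays. The salivary gland sum was highest among mid-L3 arrays on high sugar array 2. It was lowest on control array 2 (342), but close to high sugar arrays 1 (360.2) and 3 (429). Muscle markers did not set control array 2 apart, with a median deviation of 1.4, against 1.41 and 1.39 on the other control arrays. Midgut markers differed by diet, with sums of 44501 to 47639 on mid-L3 high sugar arrays, against 28685 to 29855 on mid-L3 control arrays, and 4 of 7 rose (median 0.61). Fat body markers summed to 27357 to 33863 on mid-L3 high sugar arrays, against 36784 to 40124 on mid-L3 control arrays, and 2 of 5 fell (-0.39). Markers of dividing cells summed to 2858 to 3063 on mid-L3 high sugar arrays, against 3254 to 3635 on mid-L3 control arrays, and 0 of 8 passed (-0.16). Of 10 testis markers 3 rose (0.36). The part of these differences in the diet values of the ribosomal protein genes was not tested.

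The spread of the 69 genes within groups was wide in mid-L3 larvae. The median standard deviation of log2 values was 0.13 on wandering high sugar arrays and 0.09 on wandering control arrays, below the 0.17 and 0.13 of all tested genes. It was 0.15 on mid-L3 high sugar arrays and 0.19 on mid-L3 control arrays, above the 0.10 and 0.11 of all tested genes. The fall between the stages held without both mid-L3 arrays numbered 2: 62 genes fell on high sugar food with a median of -0.89, and 67 on control food with a median of -0.92.

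Among the related lists in mid-L3 larvae, 2 of 14 mitochondrial synthetases fell after 12 hours of high sugar (14.3%, against 6.45% of all tested genes). These were SerRS-m (-0.53 ± 0.11, adjusted p = 0.0078) and AsnRS-m (-0.47 ± 0.12, adjusted p = 0.023). SerRS-m had 163, 161 and 187 in mid-L3 high sugar larvae, against 229, 256 and 279 in mid-L3 control larvae. SLIRP2, of the genome and RNA list, fell by 0.37 on the log2 scale (adjusted p = 0.04). None of 9 translation factors and none of 39 cytosolic ribosomal proteins passed, and 2 of 70 oxidative phosphorylation subunits rose, against 7.58% of all tested genes that rose. The lean below 0 was also present outside the ribosomal protein genes, in 8 of 9 translation factors (median -0.18) and in 21 of 24 nucleolar and ribosome biogenesis genes (-0.21). It was smaller in the genome and RNA list (11 of 15, -0.12) and the synthetases (9 of 14, -0.09). Below 0 lay 39 of 70 oxidative phosphorylation subunits (-0.01) and 18 of 39 cytosolic ribosomal proteins (0.0), against 47.5% of all tested genes.

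The effect of high sugar was compared between the stages as an interaction, the wandering diet change minus the mid-L3 diet change. Of the 69 genes 0 passed in limma and 9 had an unadjusted p under 0.05, while 7.80% of all tested genes passed and 22.1% had an unadjusted p under 0.05. The fitted value was above 0 for 63 genes, with a median of 0.23, against -0.02 over all tested genes. mRpS7 (0.49 ± 0.15, adjusted p = 0.064) and mRpL55 (0.51 ± 0.18, adjusted p = 0.11) had the lowest adjusted p above 0. Next were mRpS18C (0.53 ± 0.20), mRpL24 (0.40 ± 0.15), mRpS18A (0.55 ± 0.21) and mRpL46 (0.33 ± 0.13), which shared an adjusted p of 0.14. Below 0 these were mRpL45 (-0.15 ± 0.15, adjusted p = 0.60), mRpS29 (-0.14 ± 0.15, adjusted p = 0.66) and mRpL4 (-0.06 ± 0.19, adjusted p = 0.90).

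The interaction rests on the mid-L3 arrays already described. Without both arrays numbered 2 its median was 0.04 and 28 of 69 values lay below 0. Without wandering high sugar array 2, 4 genes passed above 0 (5.8%), against 6.83% of all tested genes above 0 and 8.38% below. Without mid-L3 control array 1 it was 1 gene (1.45%), against 2.98% above and 3.22% below. With estimated array weights it was 11 genes (15.9%), against 12.2% above and 14.8% below. None of the 69 passed below 0 under these settings. The mid-L3 control arrays enter the stage change on control food, the mid-L3 diet change and the interaction alike, so these values are not independent of each other. For mRpL55 the mid-L3 diet change was -0.49, the wandering diet change 0.02, the stage change on high sugar food -1.18 and that on control food -1.69.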

How the data were processed

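Per the labels' protocols, total RNA of whole larvae was DNase-treated and labelled as biotinylated cRNA for Affymetrix arrays. The deposited values are 1 linear intensity per probe set and array. The software behind them, with its normalization and detection filter, is not given in the sources used here, and the array medians of 62.2 to 82.4 differ. From 18952 probe sets, 183 controls were left out. Of the rest, 13647 had 1 gene symbol, 402 had several and 4720 were unlisted, and 13544 symbols were updated by Entrez identifier. A gene was read from its brightest single-gene probe set.

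Values were taken as log2(intensity + 12.7), the constant being the 20th percentile, and quantile normalized over all probe sets other than controls. limma 3.58.1 in R 4.3.3 fitted a mean per group over 12 arrays with an intensity trend, on 8387 genes above the 30th percentile, with adjusted p under 0.05 as the threshold. The fit was tested on simulated data. Genes were named by the largest falls per comparison, the lowest adjusted p for the interaction, and a list of tko, bonsai, mRpL12, mRpS29 and mRpS30. The genes and all lists were chosen with earlier results of these data known.

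Replicate numbers were checked for pairing. Same-numbered wandering control and mid-L3 control arrays deviated together (correlations of 0.128 to 0.199 in 3 of 3 pairs), which did not hold for the other comparisons. Alternatives changed the normalization, the constant, the filter, the choice of probe sets, the arrays fitted, the replicate block, array weights and the variance prior, and left out each array. Promoter and protein sequences were not used here.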

Additional observations from a re-analysis of the deposited data

How the results depend on the processing

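The stage falls were checked for the genes with the largest falls and for tko, bonsai, mRpL12, mRpS29 and mRpS30. For these they kept their direction and passed under every alternative run, and the mid-L3 diet calls did not. Other genes passed in only part of the settings, such as mRpL30 in 23 of 27 on control food and mRpS21 in 22 of 26 on high sugar food. The count of genes that passed between the stages was 67 to 68 on control food and 58 to 62 on high sugar food when each array was left out, with medians of -1.12 to -0.92 and of -0.89 to -0.74. On control food the median was -0.88 with deposited values and -1.18 with arrays centered on their medians. On high sugar food it was -0.53 with deposited values. These shifts follow the median of all tested genes, which was 0.19, -0.10 and, on high sugar food, 0.18. Relative to it the genes lay at -1.06 as reported and at -1.08 under both settings on control food, and at -0.77 as reported and -0.71 under both settings on high sugar food. Of all genes that passed on control food 48.6% fell as reported, 41.3% with deposited values and 54.2% with centered arrays. On high sugar food 40.9% fell with deposited values and 53.8% with centered arrays.

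For the mid-L3 diet change 14 genes fell with centered arrays (20.3%, against 9.29% of all tested genes that fell). The count was 8 with array weights (11.6% against 13.2%) and 3 with the compared groups alone (4.35% against 9.41%). It was 3 without the intensity trend (4.35% against 6.4%), 2 with no filter (2.9% against 4.69%) and 1 with the replicate block (1.45% against 5.66%). Without both mid-L3 arrays numbered 2 it was 0, against 4.23% of all tested genes, and the median was -0.03. Leaving out each array gave 0 to 7 genes and medians of -0.28 to -0.11. The cause was not tested. Among all genes 46.0% of the calls were falls as reported, against 53.0% with deposited values and 61.1% with centered arrays. Named genes lost their call in 55 of 234 values there and gained it in 1. For the wandering diet change 2 genes rose with array weights (2.9%, against 14.4% of all tested genes). When each array was left out 0 to 1 passed, with medians of -0.03 to 0.05. For the interaction 2 passed above 0 with centered arrays (2.9%, against 4.6% of all tested genes above 0 and 3.31% below). With array weights 11 passed above 0 (15.9%, against 12.2% above and 14.8% below). The median was 0.04 without both arrays numbered 2. Leaving out each array gave 0 to 4 genes and medians of 0.12 to 0.31, and named genes gained a call in 8 of 250 values. The replicate block changed no call count of the stage comparisons (61 on high sugar food and 68 on control food, also 68 with control arrays alone and a median of -1.03). Numbers do not pair the mid-L3 diet groups, whose same-numbered correlations were -0.245 to -0.0676, nor the wandering diet groups, at -0.24 to 0.269.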

Other observations

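Other gene groups linked to ribosomes and mitochondria moved with the stage in mixed ways. Of 24 nucleolar and ribosome biogenesis genes 13 fell and 3 rose on control food, with a median of -0.44. Of all tested genes 38.8% fell and 41.1% rose there. With deposited values 9 fell and 4 rose, and on high sugar food 5 fell and 8 rose under that setting. Nop56, a core protein of the complex that methylates ribosomal RNA, was among those that rose (0.42 ± 0.14, adjusted p = 0.013). Of 9 genes of the mitochondrial stress response and proteases 5 fell and 3 rose on control food. The chaperonin Hsp60A had 731, 605 and 724 in wandering control larvae, against 2949, 4078 and 3477 in mid-L3 control larvae (-2.26 ± 0.16, adjusted p = 2.4e-08). The protease subunit ClpX moved the other way, with 1984, 1924 and 1835 in wandering control larvae, against 1159.9, 1046 and 1141 in mid-L3 control larvae (0.85 ± 0.09, adjusted p = 1.4e-06).

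Of 10 growth regulators 4 rose and 0 fell on control food, where 41.1% of all tested genes rose and 38.8% fell. The share that rose was thus near the background. The insulin receptor gene InR had 374, 408 and 388 in wandering control larvae, against 122, 140.1 and 121 in mid-L3 control larvae (1.25 ± 0.10, adjusted p = 9.0e-08). crc, the Drosophila ATF4, rose by 0.74 ± 0.05 and REPTOR, a transcription factor held back by TOR signalling, by 0.85 ± 0.14. After 12 hours of high sugar REPTOR had 120.3, 133 and 122 in mid-L3 high sugar larvae, against 76.8, 54.2 and 91 in mid-L3 control larvae (0.70 ± 0.14, adjusted p = 0.0057). Its interaction was -0.74 ± 0.20 (adjusted p = 0.04), and in wandering larvae its diet change was -0.04 ± 0.14. AsnRS-m, the mitochondrial asparaginyl-tRNA synthetase, had the opposite layout. It had 162, 131 and 159 in wandering high sugar larvae and 124, 107 and 108 in wandering control larvae, but 97.1, 120.1 and 124 in mid-L3 high sugar larvae, against 147, 171 and 179 in mid-L3 control larvae. Its interaction was 0.83 ± 0.17 (adjusted p = 0.011).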
